A study of Mus musculus with 2 samples.

Results

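Connexins are the proteins of vertebrate gap junctions. They assemble into rings in the cell membrane, and the rings of adjoining cells dock to form channels through which ions and small signaling molecules pass from cell to cell. In the rodent uterus Gja1 (connexin Cx43) is known from stroma and myometrium, where it serves decidualization and the coupled contraction of muscle, and Gjb2 (Cx26) from the epithelium, and both respond to ovarian steroids. The 7 connexin genes Gja1, Gja4, Gja5, Gjb1, Gjb2, Gjb5 and Gjc1 were taken by symbol from a table of 14678 genes, and all 7 were found there.

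Uteri were collected on gestation day 2.5, before implantation, from females of 9 to 10 weeks that carried both transgenes, with the genotype VEGFtetO/tetO/beta-AKtg/wt. Dox+ mice, labelled VEGF-normal, ate chow with 200 mg/kg doxycycline, and Dox- mice, labelled VEGF-repression, were littermates from whose chow it had been withdrawn weeks before. Both groups carried the tet operator in the Vegfa promoter and the tetR-Krab repressor under the beta-actin promoter, which is active in all tissues. The labels give this strain for both groups but also call the Dox+ genotype wild type, and the diet dose and the ages are from the study's methods. The repression was therefore not limited to the uterus, and an effect of doxycycline itself cannot be told apart from that of VEGF. RNA from 3 uteri was pooled for each condition and 1 library was sequenced from each pool. In the table used here the differences thus have no replicate check, and all intervals, at 95%, cover counting error only.

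In digital gene expression profiling each mRNA is read as a short tag, and the tags of a gene are its copies. The libraries held 5985925 clean tags in Dox+ and 5844314 in Dox-, and 74.1% and 72.2% of these were in the table. Levels are given as tags in 1000000 clean tags (TPM), without a length correction. A gene was called higher or lower in Dox- when it had 200 copies or more over both libraries, a fold change of at least 1.5 and an FDR below 0.05 in the Audic-Claverie test, which compares these libraries and not the conditions. Of 6547 genes with enough copies, 15.2% were called higher and 14.7% lower. Vegfa itself went from 247 copies in Dox+ to 125 in Dox-, 1.93-fold lower (1.55 to 2.41).

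The connexin tags of the uterus differed in make-up between the libraries. Gjb2 had 72 copies in Dox+ and 1158 in Dox-, and Gja1 had 875 and 1307. Gjc1 (Cx45) went the other way, with 200 and 96 copies. Only these 3 members had enough copies to be compared, and all 3 were called, 2 higher and 1 lower. Of all genes with enough copies 15.2% were called higher and 14.7% lower (29.9% in either direction). The minimum of 200 copies counts both libraries together. Gjb2 reached it through its 1158 copies in Dox-, and Gjc1 through its 200 in Dox+. For both genes passing the minimum and being called are thus not independent. The other 4 had 127 copies or fewer over both libraries.

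The sequences before the transcription starts are shown for the members called higher, Gjb2 and Gja1, and for Gjb6, the connexin gene nearest to Gjb2. Each run is the 250 bases before the start on build GRCm38.p6 from RefSeq, written along the strand of the gene. The Gjb2 sequence is chr14:57104703-57104952 on the minus strand, the Gjb6 sequence is chr14:57133612-57133861 on the minus strand and the Gja1 sequence is chr10:56377050-56377299 on the plus strand. Capitals mark matches on either strand to 6 short motifs named after the sequences, and matching letters do not show a bound site.
Gjb2: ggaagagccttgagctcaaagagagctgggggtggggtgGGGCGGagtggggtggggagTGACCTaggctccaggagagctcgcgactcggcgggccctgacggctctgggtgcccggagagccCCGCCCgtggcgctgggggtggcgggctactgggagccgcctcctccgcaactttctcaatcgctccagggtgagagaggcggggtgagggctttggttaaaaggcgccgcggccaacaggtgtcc
Gjb6: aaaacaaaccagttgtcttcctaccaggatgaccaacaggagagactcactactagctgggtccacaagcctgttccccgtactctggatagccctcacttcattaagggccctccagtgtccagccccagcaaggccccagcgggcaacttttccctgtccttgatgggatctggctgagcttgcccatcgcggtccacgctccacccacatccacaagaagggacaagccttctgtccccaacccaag
Gja1: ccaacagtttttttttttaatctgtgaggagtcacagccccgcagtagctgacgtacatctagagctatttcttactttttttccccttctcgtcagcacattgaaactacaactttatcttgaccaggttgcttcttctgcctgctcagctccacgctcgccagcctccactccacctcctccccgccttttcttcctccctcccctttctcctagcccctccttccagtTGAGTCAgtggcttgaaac

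The motifs searched on both strands were TATAAA (the TATA box), CCAAT (the CAAT box), GGGCGG (the GC box), AGGTCA (the core of an estrogen response element), AGAACA (the core of a progesterone or glucocorticoid response element) and TGANTCA (the AP-1 site). In the Gjb2 sequence, 69.2% G and C, GGGCGG was found 2 times and AGGTCA 1 time, and the capitals of the latter read TGACCT because it lies on the other strand. Among 32851 such windows GGGCGG was present in 32.7% and AGGTCA in 14.0%. The Gja1 sequence held 1 match to TGANTCA, which was present in 6.75% of the windows. None of the 6 motifs was found in the Gjb6 sequence, 56.8% G and C. None of the 3 sequences held the TATA box, the CAAT box or AGAACA, which were present in 12.4%, 33.8% and 16.1% of the windows.

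Gjb2 encodes a β connexin of epithelia, known best from the inner ear, where its loss causes deafness. The gene lies on chromosome 14 (57717437 to 57723539, minus strand, build NCBIM37, called mm9 by UCSC), and no other annotated gene overlaps it. Its level was 12.03 TPM (9.41 to 15.1) in Dox+ and 198 TPM (187 to 209.9) in Dox-. The Dox- library was 16.5-fold higher (13.0 to 21.2), a log2 ratio of 4.04. By ratio Gjb2 stood 12th from the top among the 6547 genes. Its call held in all 12 alternatives, also where the pools were taken to vary with a coefficient of variation of 0.4. The genes with the nearest log2 ratio were Shisa2, Lrat and Angel1, at distances of 0.0075, 0.34 and 0.38 on the log2 scale. Shisa2 went from 14 to 224 copies, Lrat, an enzyme that esterifies retinol, from 22 to 279, and Angel1 from 156 to 1933. With 2 libraries this likeness rests on 1 ratio per gene.

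**Figure D1:**
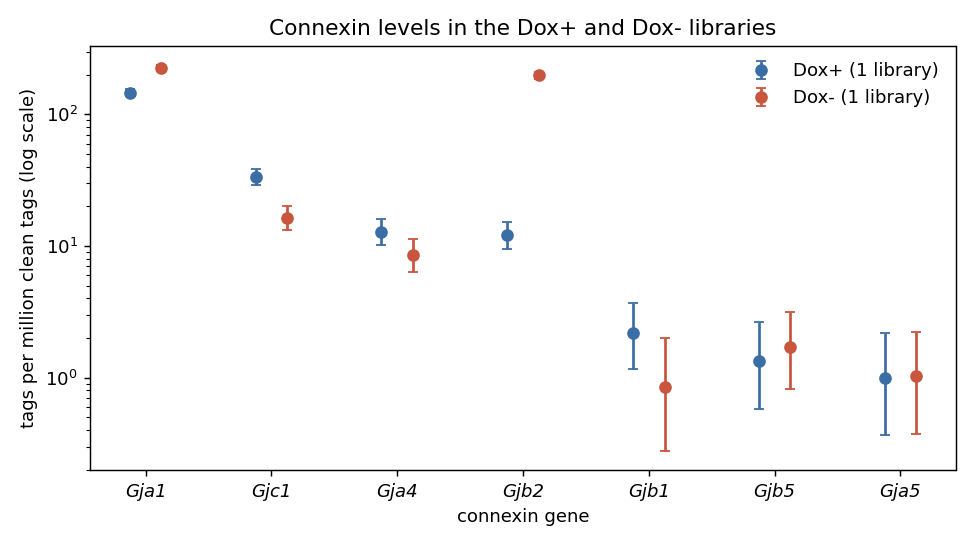
Level of the 7 connexin genes in TPM (log axis) in the Dox+ and the Dox- library, 1 library each, with exact 95% Poisson intervals. Gjb2 stood at 12.03 in Dox+ and 198 in Dox-, while the intervals of Gja4, Gja5, Gjb1 and Gjb5 overlap between the libraries.

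Gja1 encodes Cx43, the connexin of the largest copy number in both libraries. The gene lies on chromosome 10 (56097106 to 56110225, plus strand, NCBIM37). It had 146 TPM (137 to 156) in Dox+ and 224 TPM (212 to 236) in Dox-, so that Dox- was 1.53-fold higher (1.40 to 1.67). This interval reaches below the threshold of 1.5, and the call was lost when DESeq2 size factors were used (log2 ratio 0.58 in place of 0.61) when a fold of 2 was asked for, and when the pools were taken to vary with a coefficient of variation of 0.2. By ratio Gja1 stood at place 915 from the top of the 6547 genes.

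Gjc1 encodes Cx45, a connexin of smooth muscle and of the cardiac conduction system. The gene lies on chromosome 11 (102660893 to 102681014, minus strand, NCBIM37). It had 33.4 TPM (28.9 to 38.4) in Dox+ and 16.4 TPM (13.3 to 20.1) in Dox-, 2.03-fold lower in Dox- (1.59 to 2.62). The call held where the pools were taken to vary with a coefficient of variation of 0.1 and was lost with 0.2.

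Gja4 and Gja5 encode Cx37 and Cx40, the connexins of arterial endothelium. Gja4 (chromosome 4, 126988665 to 126991283, minus strand) had 77 copies in Dox+ and 50 in Dox-, or 12.9 and 8.56 TPM. The library difference was 1.504-fold, lower in Dox- (1.04 to 2.19), and with 127 copies in all Gja4 was below the minimum for a call. Gja5 (chromosome 3, 96708616 to 96881339, plus strand) had 6 copies in each library. Its interval, 0.274 to 3.83 for the ratio of Dox- over Dox+, spans 1, so that no direction was detectable at this depth. The Gja5 gene model overlaps other gene models in the annotation.

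Gjb1 and Gjb5 were at the low end of the range. Gjb1 (chromosome X, 98571717 to 98580968), which encodes Cx32 of hepatocytes and Schwann cells, had 13 copies in Dox+ and 5 in Dox-. The ratio of Dox- over Dox+ was 0.394 (0.110 to 1.18). Gjb5 (chromosome 4, 127032053 to 127035425), which encodes a connexin of epidermis and trophoblast, had 8 and 10 copies, a ratio of 1.28 (0.455 to 3.73). For these genes a difference between the libraries was not detectable at this depth.

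**Figure D2:**
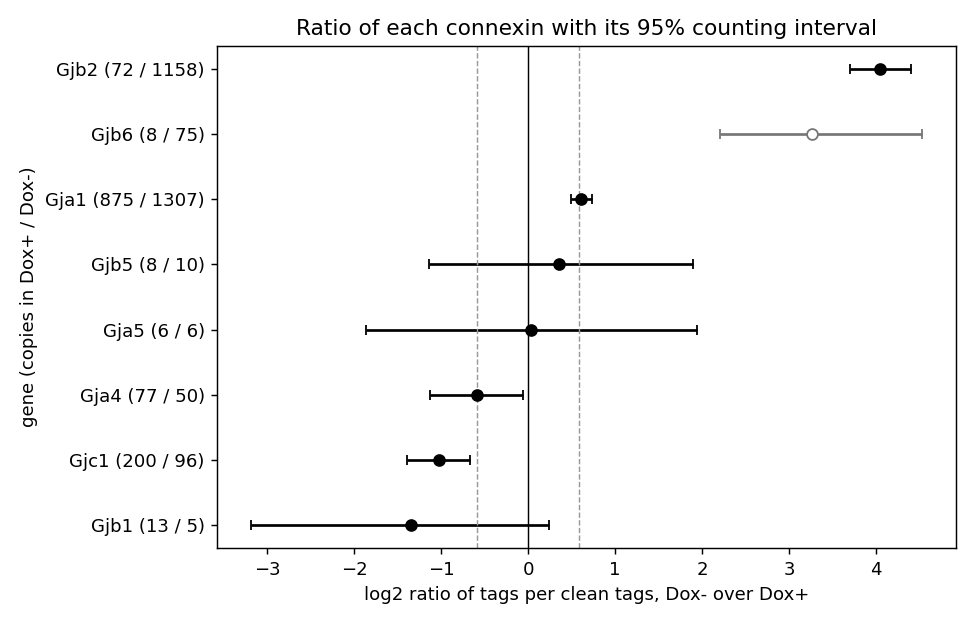
Log2 ratio of Dox- over Dox+ with its 95% counting interval for the 7 members (filled points) and Gjb6 (open point), with the copies in each library beside the name. The dashed lines mark a fold change of 1.5, and Gjb2 (4.04) and Gjb6 (3.26) lie farthest to the right.

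The order of the connexins by level differed between the libraries. In Dox+ it was Gja1, Gjc1, Gja4 and Gjb2 by TPM, and the intervals of Gja4 and Gjb2 overlapped. In Dox- it was Gja1, Gjb2, Gjc1 and Gja4, with intervals that did not overlap. Gjb1, Gjb5 and Gja5 followed in both libraries, and their intervals overlapped each other. Divided by the length of the longest annotated protein-coding transcript, Gjb2 had 82.4 TPM per kb in Dox- and Gja1 72.0. On this scale the order of these 2 genes in Dox- was reversed. Where each mRNA is read as a short tag, copies do not grow with transcript length, and the TPM order is the one that applies. The scale per kb would apply to fragmented mRNA, which the labels describe, and the conflict with tag profiling was not resolved. In Dox+ Gja1 had 47.1 TPM per kb and Gjb2 4.999, the same order on both scales.

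The members together held 1251 tags in Dox+ and 2632 in Dox-, or 209 and 450.4 TPM, and per clean tag Dox- was 2.15-fold higher (2.01 to 2.31). Without Gjb2 they held 1179 and 1474 tags, or 197 and 252 TPM, 1.28-fold higher per clean tag (1.19 to 1.38). The share of each member within a library does not depend on the library size. Gjb2 made up 5.76% of the members' tags in Dox+ (exact binomial interval 4.53 to 7.19) and 44.0% in Dox- (42.1 to 45.9). The share of Gja1 was 69.9% (67.3 to 72.5) in Dox+ and 49.7% (47.7 to 51.6) in Dox-, although its own copy number was higher in Dox-. Gjc1 went from 16.0% (14.0 to 18.1) to 3.65% (2.96 to 4.44) and Gja4 from 6.16% (4.89 to 7.63) to 1.90% (1.41 to 2.50). The higher count of Gjb2 raised the total in Dox-, so the shares of the other members fell in part for that reason. Gja4 itself, with 77 and 50 copies, was below the minimum for a call. There were 8.23 tags of Gjb2 for each 100 tags of Gja1 in Dox+ and 88.6 in Dox-, a 10.8-fold difference (8.34 to 14.1). The ratio of Gjc1 to Gja1 was 3.11-fold lower in Dox- (2.39 to 4.07).

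**Figure D3:**
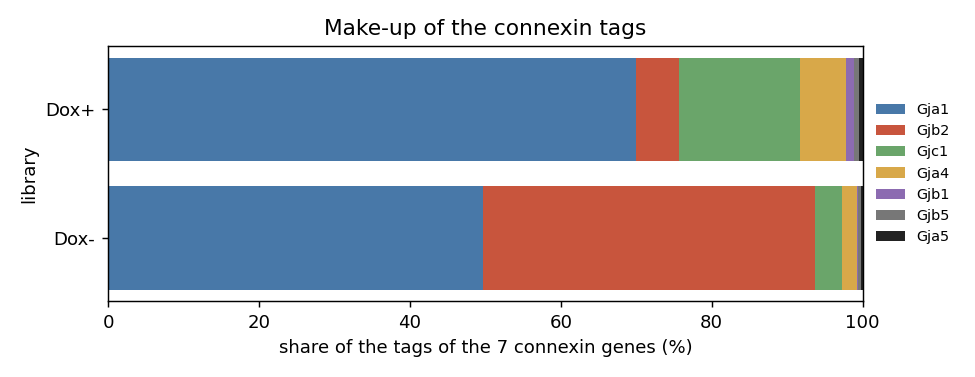
Share of each member in the tags of the 7 connexin genes, in percent, for the Dox+ library (1251 tags) and the Dox- library (2632 tags). The segment of Gjb2 is 5.76% in Dox+ and 44.0% in Dox-.

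Of 20 mouse connexin genes listed by hand, 13 were in the table, and none of the 6 that are not among the members reached 200 copies. Gjb6, which encodes Cx30 and is expressed together with Gjb2 in the inner ear, had 8 and 75 copies, a ratio of 9.60 (4.63 to 23.1). Gjd3 had 4 and 0 copies, and Gja6 had 0 and 2. With no minimum copy number Gjb6 was called higher, as were 2044 of all 14678 genes. The β connexins Gjb2 and Gjb6 were thus both higher in Dox- by more than counting error. Of the pannexins, which form channels in single membranes and were listed as 3 genes, Panx1 had 106 and 91 copies and Panx2 0 and 2.

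Gjb2 and Gjb6 are neighboring connexin genes on chromosome 14, separated by 18.6 kb and transcribed from the same strand. Another annotated gene model, Gm4491, lies between them and was not in the table. For each 100 tags of Gjb2 there were 11.1 tags of Gjb6 in Dox+ and 6.48 in Dox-, a ratio of 0.583 with an interval from 0.267 to 1.45, so that a difference between the neighbors in their ratios was not detectable at this depth.

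**Figure D4:**
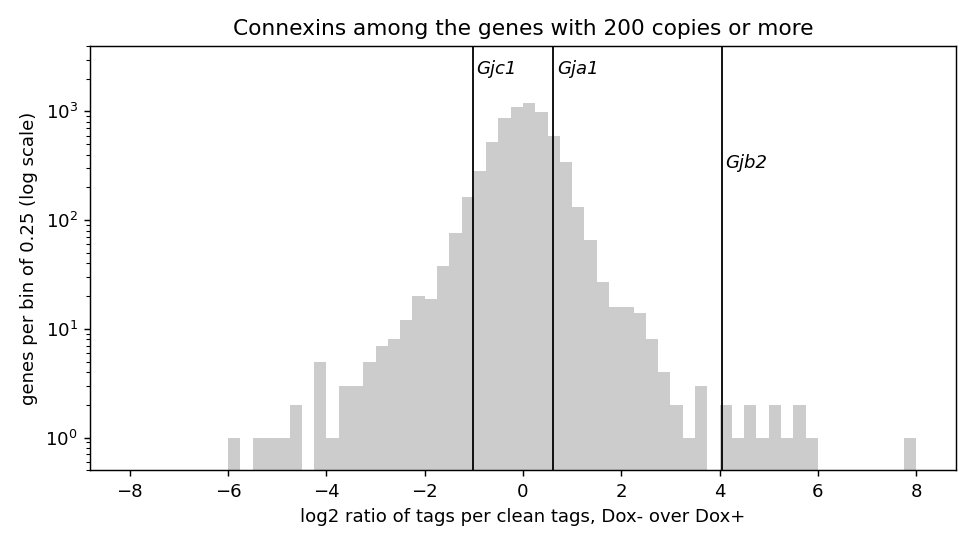
Distribution of the log2 ratio of Dox- over Dox+ over 6546 genes with 200 copies or more and a tag in both libraries (log count axis, bins of 0.25). Vertical lines mark Gjc1 at -1.02, Gja1 at 0.61 and Gjb2 at 4.04.

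The tissue holds several cell types, and in pooled tissue fewer cells of a type and less RNA per cell cannot be told apart. Marker lists of 5 cell types were followed beside the connexins. The calls of each list stand beside 15.2% higher and 14.7% lower over all genes with enough copies. Of 15 epithelial markers with enough copies 7 were called higher and 2 lower, with a median log2 ratio of 0.53, and the 16 markers in the table summed to 1709 TPM in Dox+ and 2635 in Dox-. The transcription factor Elf3 rose from 185 to 1083 copies, keratin Krt7 from 179 to 600, lactoferrin Ltf from 905 to 2639, Cldn7 from 877 to 2263 and mucin Muc1 from 260 to 650. Claudins Cldn3 and Cldn4 fell, from 1482 to 494 and from 149 to 65 copies. Krt19, another marker with many copies, went from 1554 to 2046 and was not called. No gene of the marker lists in the table was at 0 in either library.

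Gjb2 was higher in Dox- also relative to the summed tags of the epithelial markers, which did not all move the same way. What part the number of epithelial cells had in this was not tested. There were 0.704 tags of Gjb2 for each 100 epithelial marker tags in Dox+ and 7.52 in Dox-, a 10.7-fold difference (8.40 to 13.8). The same ratio was 6.23-fold higher in Dox- for Gjb6 (3.00 to 15.0). Of the epithelial markers with enough copies Elf3 had the largest log2 ratio, 2.58.

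Smooth muscle markers were lower in Dox-, with 6 of 11 called lower and none higher and a median log2 ratio of -0.74. The list summed to 9800 TPM in Dox+ and 6765 in Dox-, and Mylk, the myosin light chain kinase, fell from 9121 to 5256 copies. Tagln went from 11417 to 8854 and Myl9 from 9564 to 7452, without a call. For each 100 tags of the list there were 0.341 tags of Gjc1 in Dox+ and 0.243 in Dox-, a ratio 1.40-fold lower in Dox- (1.10 to 1.81), against 2.03-fold without this reference. Gja1 had 1.49 tags for each 100 of the list in Dox+ and 3.31 in Dox-, a 2.22-fold difference (2.03 to 2.42).

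The endothelial list had 4 of 6 genes called lower and none higher, with a median log2 ratio of -0.78. The cadherin Cdh5 fell from 446 to 216 copies and Egfl7 from 255 to 140, while Pecam1 had 243 and 253. The 13 endothelial markers summed to 330 TPM in Dox+ and 224 in Dox-. Gja4 had 3.90 tags for each 100 of these in Dox+ and 3.81 in Dox-, a ratio of 0.977 (0.665 to 1.42).

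Of 12 stromal markers 2 were called higher and 4 lower, as Col1a2 rose from 4793 to 9627 copies while Hoxa10 fell from 3120 to 1060, Hoxa11 from 2573 to 785 and Hand2 from 985 to 143. Col1a1 went from 23017 to 33696, just short of the fold threshold, and Col3a1 from 18514 to 17098. The median log2 ratio of the list was -0.25, although it summed to 9876 TPM in Dox+ and 11790 in Dox-. Col1a1, Col1a2 and Col3a1 held most of the tags in this sum. The ratio of Gja1 to this sum was 1.28-fold higher in Dox- (1.17 to 1.40), and to the epithelial sum 0.992-fold (0.907 to 1.09). Leukocyte markers summed to 155 and 224 TPM, with 1 of 4 genes of enough copies called, Laptm5, which rose from 224 to 446 copies, while Csf1r had 186 and 181 and Tyrobp 211 and 158. The part that the make-up of cell types had in the connexin ratios was not tested.

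**Figure D5:**
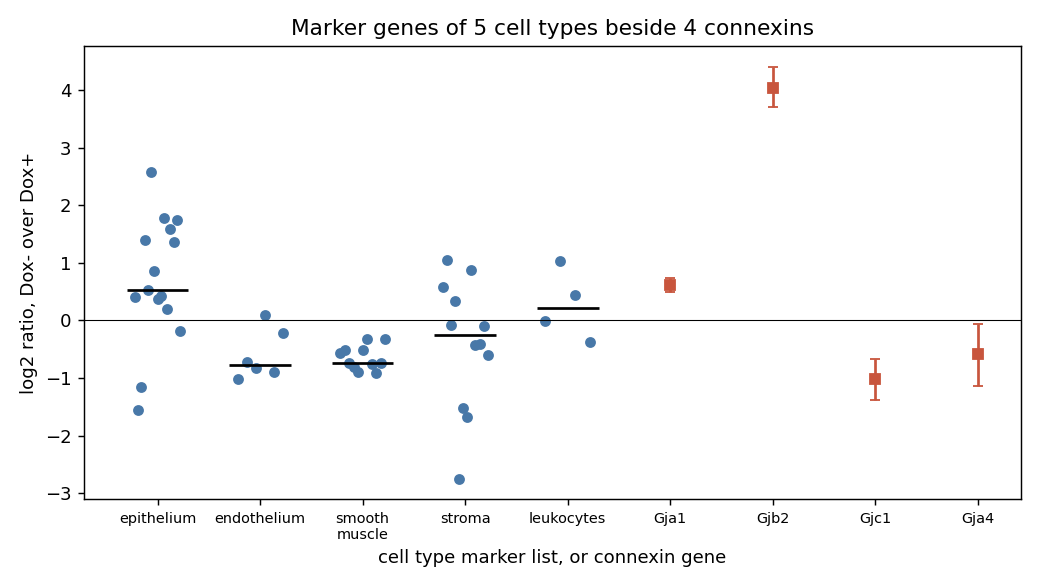
Log2 ratio of Dox- over Dox+ for marker genes with 200 copies or more of 5 cell types (blue points, black line at the median) and for 4 connexins with 95% counting intervals (red squares). Gjb2, at 4.04, lies above every marker, and Gja4, at -0.59, had fewer than 200 copies.

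The proteins that hold, modify and remove connexins were followed with 3 lists. Of 16 scaffold and adhesion partners 13 had enough copies, and 2 were called higher and 1 lower. Of all 6547 genes with enough copies 15.2% were called higher and 14.7% lower, and the lists were not tested against these shares. The median log2 ratio of the scaffold list was -0.16, where the median of all 6547 genes was 0.03. The tight junction scaffold Tjp3 rose from 56 to 249 copies, 4.55-fold (3.40 to 6.20), and Ezr, which links membranes to actin, from 297 to 542. The scaffold that binds Cx43, Tjp1, went from 528 to 462 copies and was not called. Cdh5, the endothelial cadherin, was the gene called lower. Ctnnb1, with 2319 and 1734 copies, Cav1, with 1882 and 1308, and the epithelial cadherin Cdh1, with 703 and 909, were not called.

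Of 16 kinases and phosphatases listed for connexins, 3 of 13 with enough copies were called higher and none lower, with a median log2 ratio of 0.30. Among all genes with enough copies 15.2% were called higher and 14.7% lower. Csnk1e, a casein kinase, rose from 69 to 161 copies, the protein kinase C isoform Prkce from 79 to 156 and the mitotic kinase Cdk1 from 355 to 639. Akt1, with 2541 and 2654 copies, and Csnk1d, with 857 and 629, were not called.

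Of 18 genes of trafficking and turnover 16 had enough copies, 4 called higher and 2 lower with a median log2 ratio of 0.18. The shares of all genes with enough copies were 15.2% and 14.7%. The autophagy receptor Sqstm1 rose from 682 to 1301 copies, the kinesin Kif5b from 577 to 889, the ubiquilin Ubqln4 from 178 to 278 and the endosomal sorting protein Hgs from 149 to 219. Map1lc3b, of the autophagosome membrane, fell from 2209 to 1175 and the endocytic adaptor Dab2 from 604 to 333. The ubiquitin ligase Nedd4, which binds Cx43, had 3824 and 3427 copies, and the clathrin adaptor subunit Ap2m1 had 1023 and 1330.

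Genes of steroid response were listed because uterine connexins answer to estrogen and progesterone. Of 12 genes 8 had enough copies, 2 called higher and 3 lower with a median log2 ratio of -0.17. The shares of all genes with enough copies were 15.2% higher and 14.7% lower. The progesterone receptor Pgr rose from 687 to 1251 copies and the estrogen receptor Esr1 from 165 to 262. Ihh, the hedgehog ligand that the epithelium makes under progesterone, fell from 646 to 37 copies, the stromal transcription factor Hand2 from 985 to 143, and the homeobox gene Msx1 from 1757 to 727. Stat3 had 830 and 962 copies and was not called. Areg, a progesterone-induced growth factor of the epithelium, had 31 copies in Dox+ and 0 in Dox-, too few for a call.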

How the data were processed

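Total RNA from pooled uteri was profiled by digital gene expression, with 1 library for Dox+ and 1 for Dox-. Adaptor-only tags, low quality tags and tags seen once were removed by the authors, the remaining tags were matched to mouse reference mRNAs of build mm9, and unambiguous tags were counted per gene. The submitters' processing notes name CASAVA, and the aligner, the enzyme and the strand of the counted tags are not given in the sources used here. The labels describe fragmented mRNA and the methods describe tag profiling, and this difference was not resolved. The deposited counts are copy numbers without normalization. The deposited TPM values are tags per 1000000 clean tags, with 0.01 at a count of 0. The table also holds a log2 ratio, ratios, a P-value and an FDR made by the authors, which were not used.

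The clean tags were computed as the only whole number that gives every TPM value, within 0.005, in 14050 genes of Dox+ and 13948 of Dox-. Intervals of ratios were taken from the exact (Clopper-Pearson) interval of the share of a gene's tags in Dox-, those of levels were exact Poisson intervals and those of shares exact binomial intervals, at 95%. PCR copies are not independent molecules, so these cover counting error only. The Audic-Claverie test was two-sided, with Benjamini-Hochberg adjustment over all 14678 genes. It was run on simulated Poisson counts without variation between pools, so that this check does not cover such variation. A count of 0 allows up to 3 tags, or 0.501 TPM in Dox+ and 0.513 in Dox-. Ratios between a gene and another gene or list within a library carry exact conditional intervals of the odds ratio.

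The text names the members, the other connexins and pannexins of the table, the 3 genes with the most copies of each list, the listed genes called with a fold of at least 2, Vegfa, and the 3 genes nearest to Gjb2 in log2 ratio. Some of these genes are not reported here. Other called genes and Tjp1 and Areg were named after their values were seen. The members and lists were chosen with earlier results of these data known. The ratios within a library and the levels per kb were added after seeing the data. Alternatives were other minimum copy numbers, library sizes, thresholds and error models. Positions and lengths of the longest protein-coding transcript are from GENCODE vM1 on NCBIM37, and 6 of the 7 members, without Gjc1, were matched in the RefSeq promoter table. Python 3.11.15, numpy 2.4.6, scipy 1.17.1, pandas 2.3.3, matplotlib 3.10.9, R 4.3.3, edgeR 4.0.16 and DESeq2 1.42.0 were used.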

Additional observations from a re-analysis of the deposited data

How the results depend on the processing

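No paired analysis was possible because each condition has 1 library, and no replicate could be left out. Of the members called higher, 1 in place of 2 remained with DESeq2 size factors, with a fold of 2, and in the edgeR exact test with a coefficient of variation of 0.2 or 0.4 between pools. That gene was Gjb2, and the lost one was Gja1, at a log2 ratio of 0.58 with the size factors and 0.61 with clean tags. With 0.2 or 0.4 assumed, 0 members in place of 1 were called lower, as Gjc1 (-1.02) was lost. Over all genes 994 were called higher and 961 lower, 147 and 174 with 0.2, 16 and 17 with 0.4, 302 and 368 with a fold of 2, and 2044 and 2077 with no minimum copy number. The log2 ratios of the members moved by at most 0.04 with another library size, and with a pseudocount of 1 they stayed within their intervals. The ratios to marker sums and the order per kb, which were chosen after seeing the data, stand with the results. Of the partner and steroid lists together, 11 genes were called higher, 1 with a coefficient of variation of 0.2, 0 with 0.4 and 3 with a fold of 2. From the same lists 6 were called lower, 2 with 0.2, 1 with 0.4 and 12 with no minimum copy number. Of the markers 10 were called higher, 6 with 0.2 and 0 with 0.4, and 16 lower, 4 with 0.2, 0 with 0.4 and 6 with a fold of 2. With all 13 connexins as the total, Gja1 held 62.9% in Dox+ and 45.7% in Dox-, and Gjb2 40.5% in Dox-. Another 94 values of these results stayed within 1.5 times the count or within their intervals. No ratio of a member turned its direction under these alternatives. With 1 library for each condition these data give no estimate of how pools vary, and ratios of genes under 20 copies are limited by depth.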

Other observations

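Genes that flank the connexin clusters were read as further values, chosen by position after the connexin ratios were seen. Within 250 kb of the chromosome 14 cluster, counted from Gja3 to Gjb6, 3 flanking genes were in the table. Zmym2 went from 106 to 181 copies (ratio of Dox- over Dox+ 1.75, 1.37 to 2.24), Zmym5 from 24 to 59 (2.52, 1.54 to 4.23) and Cryl1, a lens crystallin relative, from 69 to 129 (1.91, 1.42 to 2.60). All 3 were higher in Dox- by more than counting error, and each interval lies below that of Gjb2 (13.0 to 21.2). The share of all genes with such an interval was not computed. Only Zmym2 had enough copies for a call and was called higher, as were 15.2% of all genes with enough copies. Whether the flanking genes differ from other genes was not tested. Near Gja4 and Gjb5 on chromosome 4, Zmym6 went from 32 to 18 copies, Gm12942 from 84 to 86 and BC003266 from 180 to 199, and none differed beyond counting error.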
